A study of Mus musculus with 9 samples.

Results

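Glutathione and NADPH antioxidant genes were followed in macrophages sorted from 3 organs of the mouse. The 10 genes Gstm1, Me1, Nqo1, Gclm, Gclc, Txnrd1, Slc7a11, Srxn1, Gsr and Nfe2l2 were taken by symbol from a deposited table of 15434 genes. They were chosen with earlier results of these data known. 9 of the 10 had a row, and the expression of Nqo1 was not analysed here. RNA sequencing libraries came from macrophages of testis, epididymis (the duct in which sperm mature) and brain, with 3 libraries per organ and 9 in all. All animals had the C57BL/6J background, and the cells were neither cultured nor treated. Cells were sorted as live CD45+ CD11b+ F4/80+ cells lacking Ly6C and CD11c, and the library titles call the brain cells microglia. The labels give mouse number 1 for all testis libraries, 2 for all epididymis libraries and 3 for all brain libraries. Organ and mouse number therefore cannot be told apart, so that p-values rest on the spread among libraries of 1 mouse number, which may be technical. The protocol mentions pooling of testis and epididymis cell suspensions without saying how, and the organ labels were taken as they stand.

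Cells neutralise peroxides and reactive chemicals with glutathione and thioredoxin, and both systems are recharged with electrons from NADPH. SLC7A11 imports cystine, the glutamate-cysteine ligase subunits GCLC and GCLM start glutathione synthesis, and glutathione reductase (Gsr) and thioredoxin reductase (Txnrd1) spend NADPH to restore the reduced forms. The transcription factor NRF2, encoded by Nfe2l2, is known to drive many of these genes through antioxidant response elements, and in macrophages the pathway is known to act beside the NADPH oxidase that makes superoxide.

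Reads assigned to genes numbered 2727092 to 4458688 per library, and between 10551 and 12302 genes had a value above 0. Values are normalised read counts, reads divided by a factor per library, in which 1 read was worth between 0.808 and 1.11. The summed level of 9 macrophage and sort markers was 42.3 to 46.0 of every 10000 reads in testis libraries, 73.2 to 76.4 in epididymis libraries and 102 to 107 in brain libraries. Csf1r was the largest part of that sum, and single markers went both ways, with 3 of 9 called lower in testis than in epididymis, 2 higher and 3 lower in testis than in brain, and 3 higher and 2 lower in epididymis than in brain. Microglia markers stood at 1.79 to 3.05 of every 10000 reads in testis, 11.5 to 15.5 in epididymis and 48.0 to 53.7 in brain. Itgax encodes CD11c, by which cells were excluded in the sort. It had normalised read counts of 265, 209 and 294 in epididymis, against 0, 0 and 21.4 in testis and 0 in each brain library.

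Me1 and Gstm1 were high in testis libraries and at or near 0 elsewhere, Nfe2l2 was highest in epididymis libraries, and the other 6 genes passed no test between organs. The F test of limma across the organs called 3 of the 9 genes after Benjamini-Hochberg adjustment (adjusted p below 0.05 here and throughout), beside 11.4% of all 11766 genes tested. Me1 passed the filter on low values (at least 10 in at least 3 libraries) only through its testis libraries. The median log2 fold of the 9 genes was -0.65 for testis over epididymis, -1.07 for testis over brain and -0.86 for epididymis over brain, against 0.10, -0.07 and -0.13 over all genes tested. These folds are of log2(value + 1), where single libraries at 0 can enlarge a fold. Testis replicate 1 was at 0 for Gclm, Txnrd1, Srxn1 and Gsr, so the medians do not show that the genes were lower in testis.

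**Figure D1:**
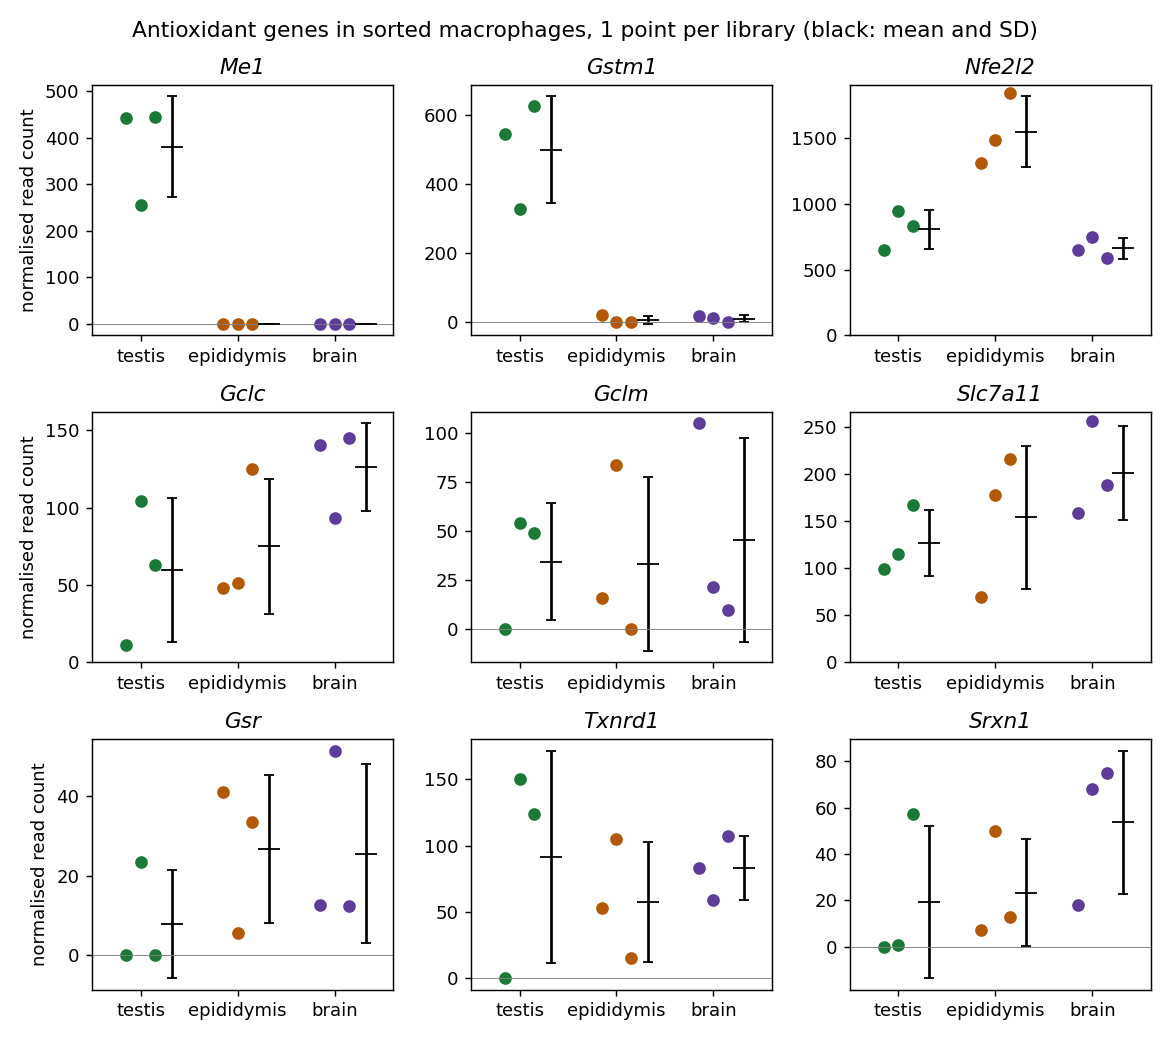
Normalised read counts (y axis) of the 9 genes in testis, epididymis and brain libraries (x axis), with 1 point per library and the mean and SD in black beside them. Me1 and Gstm1 stand high only in the 3 testis libraries, Nfe2l2 stands highest in the 3 epididymis libraries, and the points of the other 6 genes overlap between organs.

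Me1 encodes cytosolic malic enzyme, which makes NADPH while turning malate into pyruvate. Its normalised read counts were 442, 256 and 445 in the testis libraries (381 ± 108, SD, n = 3), while the 3 epididymis and the 3 brain libraries held no read of it. The groups did not overlap: 1265 reads in all came from testis. Against a floor of 3 reads per library, Me1 was at least 130.3-fold higher in testis than in epididymis (limma adjusted p = 0.00171) and at least 130.8-fold higher than in brain (limma adjusted p = 0.000499). With any testis library left out, Me1 had too few libraries for the filter and was not tested. These floors cover counting error only, while the 95% intervals of log2 folds rest on the spread between libraries. Me1 lies on chromosome 9 from 86581371 to 86695953 on the minus strand (GRCm38), and 0.78% of its exonic bases overlap A330041J22Rik on the opposite strand. Of its 50-base transcript stretches, 28.3% also occur in transcripts of 3 other genes, led by Gm7049 with 21.1%, so some reads could belong to a copy.

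Gstm1, a mu class glutathione transferase that couples glutathione to reactive chemicals, followed the same order of organs. Normalised read counts were 547, 327 and 627 in testis libraries, against 20.9, 0 and 0 in epididymis libraries and 18.2, 13.4 and 0 in brain libraries. Every testis library lay above every other library. The mean was 500.2 ± 155 in testis, 6.97 ± 12.1 in epididymis and 10.5 ± 9.44 in brain (SD, n = 3 each). On the scale of log2(value + 1), testis was higher than epididymis by 7.43 (SE 1.60, limma adjusted p = 0.0151) and higher than brain by 6.21 (SE 1.60, limma adjusted p = 0.0188). The epididymis and brain levels overlapped, with a log2 fold of -1.22 (95% interval -4.63 to 2.19). With DESeq2 on recovered reads the Gstm1 calls did not pass (adjusted p = 0.0517 against epididymis and 0.0562 against brain), nor did the call against epididymis where variances were not tied to the mean level (adjusted p = 0.0617). Neither call passed without testis replicate 1, 2 or 3 in turn (adjusted p from 0.0510 to 0.0711). Leaving out epididymis replicate 2 also ended the call against epididymis (adjusted p = 0.0516), and leaving out brain replicate 3 the call against brain (adjusted p = 0.0687). Gstm1 lies on chromosome 3 from 108012255 to 108017973 on the minus strand (GRCm38), with no exon of another gene across it. It shares 18.9% of its 50-base transcript stretches with 5 other genes, led by the pseudogene Gstm2-ps1 with 14.1%.

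Nfe2l2 encodes the transcription factor NRF2. Its normalised read counts were 647, 943 and 832 in testis libraries, 1313, 1489 and 1843 in epididymis libraries and 651, 749 and 591 in brain libraries. All epididymis libraries lay above all others, while testis and brain overlapped. The mean was 807 ± 149 in testis, 1548 ± 269.8 in epididymis and 664 ± 79.8 in brain (SD, n = 3 each). On the log2(value + 1) scale, Nfe2l2 fell by 0.94 in testis relative to epididymis (SE 0.23, limma adjusted p = 0.0301) and rose by 1.21 in epididymis relative to brain (SE 0.23, limma adjusted p = 0.00559). Testis and brain differed by 0.27 (95% interval -0.22 to 0.76, limma adjusted p = 0.541). Where variances were not tied to the mean level, both calls were lost (adjusted p = 0.271 and 0.144). The call between testis and epididymis was also lost with edgeR (adjusted p = 0.0546) and when testis replicate 1 or 3 or epididymis replicate 2 or 3 was left out (adjusted p from 0.0668 to 0.116). Nfe2l2 lies on chromosome 2 from 75675513 to 75704641 on the minus strand (GRCm38) and shares no 50-base transcript stretch with another gene.

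In the comparison of testis with epididymis, 2 of the 9 genes were called higher (Me1 and Gstm1) and 1 lower (Nfe2l2), beside 2.49% of all tested genes called higher and 1.9% called lower. Against brain, Me1 and Gstm1 were the 2 called higher in testis, beside 6.82% of all tested genes called higher and 4.83% called lower. As Me1 reached the filter only with its testis libraries, its place in both counts is no support for a change of the set. Between epididymis and brain, Nfe2l2 was the 1 gene called, higher in epididymis, beside 2.99% of all tested genes called higher and 1.8% called lower.

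**Figure D2:**
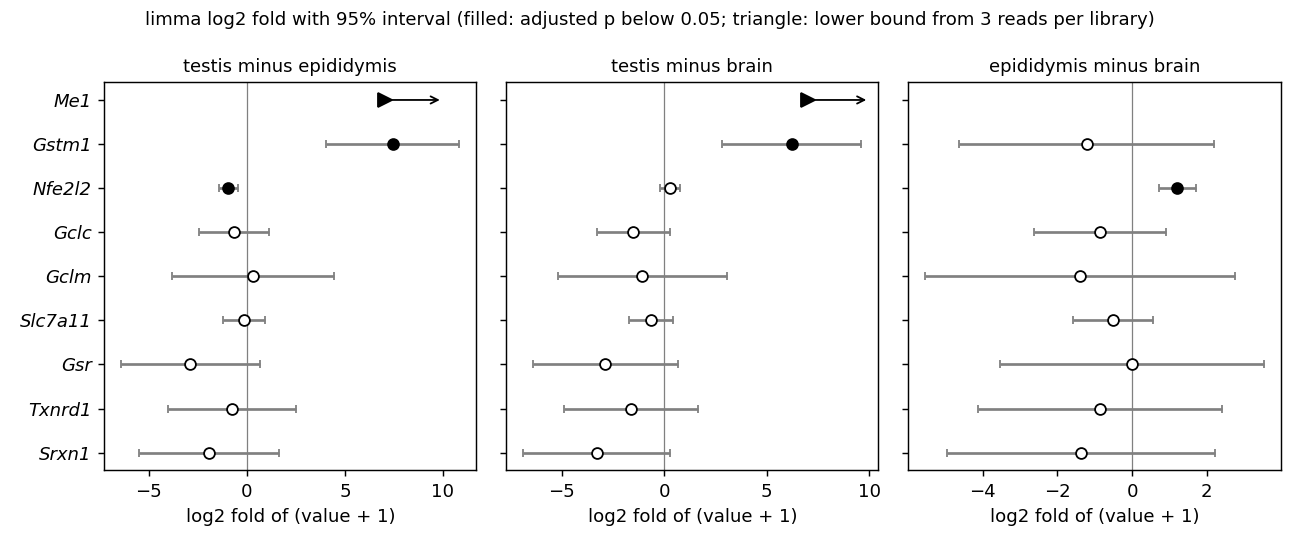
Log2 folds of (value + 1) from limma on the x axis for each gene (rows), with 95% intervals, for testis over epididymis, testis over brain and epididymis over brain, where filled points passed an adjusted p below 0.05. The triangles for Me1 mark the lower bound of its fold in log2 units, from a floor of 3 reads per library, and the intervals of the 6 genes from Gclc down all include 0.

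Promoter sequence is shown for the 3 genes that differed among organs, to set it beside the elements through which NRF2 is known to act. The bases are those before the annotated start (RefSeq, GRCm38.p6), 5′ to 3′ on the gene's strand and without bases inside the gene. Capitals mark the core of an antioxidant response element, TGACNNNGC or TGAGNNNGC on either strand. Either form can also hold the AP-1 site, written TGACTCA or TGAGTCA.
Me1, chr9:86695954-86696164, minus strand: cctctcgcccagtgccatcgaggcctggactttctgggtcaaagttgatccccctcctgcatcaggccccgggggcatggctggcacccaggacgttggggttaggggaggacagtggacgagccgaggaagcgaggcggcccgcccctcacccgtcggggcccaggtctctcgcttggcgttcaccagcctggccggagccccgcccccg
Gstm1, chr3:108017974-108018223, minus strand: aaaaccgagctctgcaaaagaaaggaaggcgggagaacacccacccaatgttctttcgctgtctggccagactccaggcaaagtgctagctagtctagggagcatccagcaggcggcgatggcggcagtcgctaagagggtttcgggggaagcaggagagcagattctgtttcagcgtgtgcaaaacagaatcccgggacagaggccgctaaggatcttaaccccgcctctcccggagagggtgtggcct
Nfe2l2, chr2:75704664-75704913, minus strand: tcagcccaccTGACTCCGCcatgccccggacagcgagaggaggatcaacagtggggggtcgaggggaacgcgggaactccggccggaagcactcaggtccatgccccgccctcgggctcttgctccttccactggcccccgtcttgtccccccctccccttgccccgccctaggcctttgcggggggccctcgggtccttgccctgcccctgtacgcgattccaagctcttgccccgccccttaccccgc
The core was found in the Nfe2l2 stretch alone of these 3, as TGACTCCGC, and the absence of these letters in the other windows says nothing of binding by the factor.

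Promoters were listed in RefSeq for 8 of the 10 genes, Nqo1 among them and without a match, with 12 starts in all. The first search used TGACNNNGC alone and matched 3 of the 8 genes, beside 13.4% of tested genes with a promoter. The form TGAGNNNGC was added after those matches had been seen, and with both forms 5 of the 8 genes and 5 of the 12 promoters matched in 250 bases before the start, beside 29.3% of 9022 tested genes and 23.0% of 32851 promoters. The windows below show the matches outside Nfe2l2, all in genes that did not pass a test between organs.
Srxn1, chr2:152105351-152105389, plus strand: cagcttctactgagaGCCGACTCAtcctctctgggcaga
Srxn1, chr2:152105464-152105502, plus strand: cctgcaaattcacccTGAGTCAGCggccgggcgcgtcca
Slc7a11, chr3:50443687-50443725, minus strand: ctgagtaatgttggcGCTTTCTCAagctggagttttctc
Gclm, chr3:122245408-122245446, plus strand: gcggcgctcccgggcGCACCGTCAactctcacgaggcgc
Txnrd1, chr10:82859099-82859137, plus strand: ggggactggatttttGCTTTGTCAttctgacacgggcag
The second Srxn1 match, TGAGTCAGC, begins 45 bases before the start and holds the AP-1 letters as well.

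The genes of glutathione synthesis were present in most libraries and overlapped between organs. Slc7a11, the cystine importer, had normalised read counts of 99.4, 116 and 167 in testis, 69.1, 177 and 216 in epididymis and 158, 256 and 188 in brain. Gclc, the catalytic ligase subunit, had 11.4, 104 and 63.3 in testis, 48.2, 51.6 and 125 in epididymis and 140, 93.6 and 145 in brain. Both had their highest mean in brain, at 201 ± 50.2 for Slc7a11 and 126 ± 28.3 for Gclc, yet the ranges of the organs overlapped. Gclm, the modifier subunit, had 0, 54.1 and 48.7 in testis, 15.5, 83.5 and 0 in epididymis and 105, 21.2 and 9.78 in brain, so that the spread within each organ exceeded the differences between the means.

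The log2 folds left room for changes in both directions. For Slc7a11 the fold was -0.15 for testis over epididymis (95% interval -1.22 to 0.92) and -0.66 for testis over brain (-1.73 to 0.41). For Gclc it was -0.65 (-2.42 to 1.12) and -1.51 (-3.28 to 0.26), and for Gclm 0.33 (-3.81 to 4.47) and -1.07 (-5.21 to 3.07). Epididymis over brain gave -0.51 for Slc7a11 (-1.58 to 0.56), -0.86 for Gclc (-2.63 to 0.91) and -1.40 for Gclm (-5.53 to 2.74). Each of these intervals includes a change of 1 log2 unit in at least 1 direction.

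The enzymes that restore reduced glutathione, thioredoxin and peroxiredoxin were low and patchy. Gsr had normalised read counts of 0, 23.4 and 0 in testis, 40.9, 5.63 and 33.4 in epididymis and 12.8, 51.3 and 12.4 in brain. Txnrd1 had 0, 150.3 and 124 in testis, 52.7, 105 and 15.1 in epididymis and 82.9, 59.1 and 108 in brain. Srxn1, sulfiredoxin, which repairs overoxidised peroxiredoxins, had 0, 0.808 and 57.3 in testis, 7.27, 49.7 and 12.9 in epididymis and 18.2, 68.0 and 74.7 in brain. All 3 had at least 1 testis library without a read, and testis replicate 1 held no read of Gsr, Txnrd1, Srxn1 or Gclm and the lowest Gclc value of all libraries. That library had 10687 genes above 0, against 12136 and 12302 in the other testis libraries, and the part of this in the values was not tested.

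For testis over epididymis the log2 folds were -2.87 for Gsr (95% interval -6.40 to 0.65), -0.76 for Txnrd1 (-4.04 to 2.52) and -1.93 for Srxn1 (-5.51 to 1.65). Testis over brain gave -2.88 for Gsr (-6.40 to 0.65), -1.62 for Txnrd1 (-4.89 to 1.66) and -3.30 for Srxn1 (-6.88 to 0.28). For epididymis over brain they were -0.01 for Gsr (-3.53 to 3.52), -0.86 for Txnrd1 (-4.14 to 2.42) and -1.37 for Srxn1 (-4.95 to 2.21). The smallest unadjusted p among the 6 genes and 3 comparisons was 0.0683, for Srxn1 between testis and brain, and neither edgeR nor DESeq2 called any of the 6. The fold of Txnrd1 for testis over epididymis changed sign with edgeR, to 0.69, and over brain to 0.12.

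Per kilobase of exonic sequence, the mean normalised read count in testis was 339.6 for Gstm1, 213 for Nfe2l2 and 99.1 for Me1, and below 16 for each of the other 6 genes. In epididymis Nfe2l2 led with 408 per kilobase and in brain with 175, where Gclc came next with 19.9 in epididymis and 33.5 in brain. Across the 9 libraries, Pearson's r of log2(value + 1) was 0.88 between Me1 and Gstm1 and 0.83 between Gclm and Txnrd1. Nfe2l2 had r between -0.40 and 0.34 with the other 8 genes. These are descriptions over libraries that share organs and depths.

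The 5 tested genes most like Me1 over the 9 libraries by Pearson's r were Aqp2, Cyp17a1, Klk1b21, Wnt6 and Fabp3, with r between 0.9977 and 0.9999. All of them, like Me1, were listed at 0 in every epididymis and brain library. These shared zeros bring r near 1 for any such gene, so the likeness shows no further link to Me1. Within testis not all followed Me1, as Wnt6 had 74.5, 46.0 and 44.5. Cyp17a1, a steroid hormone enzyme of Leydig cells, had normalised read counts of 382, 284 and 366 in testis. Fabp3, which carries fatty acids, had 194, 80.0 and 259 in testis.

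The summed markers of Leydig cells, the CD45-negative steroid-making cells of the testis, were highest in testis libraries, as were Me1 and Gstm1. Of 8 markers listed, 7 were in the table and 6 were tested, of which 5 were called higher in testis than in epididymis and 4 higher than in brain. As 4 of the 6 (Insl3, Cyp17a1, Hsd3b6 and Hsd17b3) reached the filter only with their testis libraries, these counts describe the libraries and support nothing further. Their summed level was 5.80, 3.97 and 10.5 of every 10000 reads in testis libraries, between 0.091 and 0.643 in epididymis and between 0.249 and 0.336 in brain. In epididymis 5 of the 7 were at 0 in all libraries (Insl3, Cyp17a1, Hsd3b1, Hsd3b6 and Hsd17b3), and in brain 3 were (Cyp17a1, Hsd3b1 and Hsd3b6). Testis replicate 2 was lowest and testis replicate 3 highest for this sum, for Me1 and for Gstm1. Among single markers, Insl3, Cyp11a1 and Hsd17b3 kept that order of replicates, while Cyp17a1, Star, Hsd3b1 and Hsd3b6 did not. Me1 was nearly level between testis replicates 1 and 3, at 442 and 445. The part of Leydig cell RNA in the levels of Me1 and Gstm1 was not tested, and in bulk samples more cells of a type and more RNA per cell cannot be told apart.

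Other cell types also differed between the libraries. The summed markers of monocytes took 3.69 to 4.71 of every 10000 reads in testis, against 0.066 to 0.516 in epididymis and 0.438 to 0.722 in brain, and those of T and NK cells 1.52 to 2.40 in testis, against 0.207 to 0.543 and 0.233 to 0.506. Germ cell markers took 2.75 to 6.33 in testis, 1.67 to 2.70 in epididymis and 0.003 to 0.056 in brain. Immediate-early and heat shock genes, which respond to tissue digestion, summed to 531 to 543 of every 10000 reads in testis, 208 to 227 in epididymis and 282 to 428 in brain. Of the 16 listed, 13 were called higher in testis than in epididymis, 9 higher in testis than in brain and 4 lower in epididymis than in brain. Nfe2l2 was highest in epididymis, where this sum was lowest, and its levels in testis and brain overlapped. Epididymal epithelium markers stood with Nfe2l2 at 1.51 to 2.07 of every 10000 reads in epididymis, against 0.195 to 0.381 in testis and 0.084 to 0.193 in brain. Of 10 such markers in the table, 7 were at 0 in all testis libraries and 6 in all brain libraries, and of 4 tested 2 (Defb20 and Adam7, which reached the filter only with their epididymis libraries) were called higher in epididymis in both comparisons. The part of either list in the level of Nfe2l2 was not tested.

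**Figure D3:**
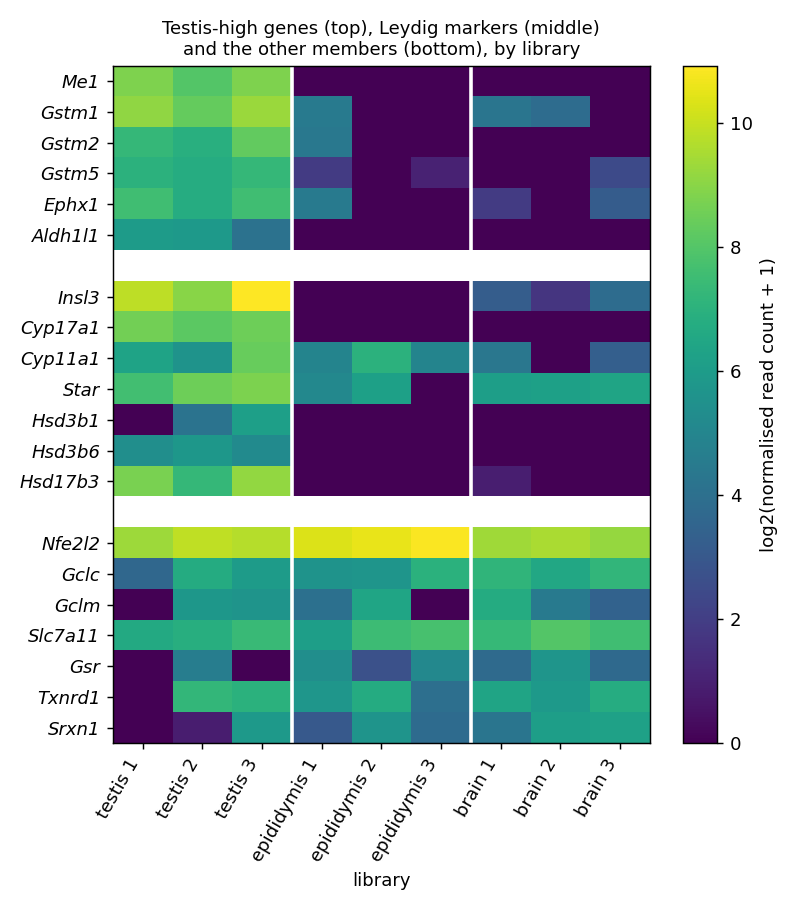
Colour gives log2(normalised read count + 1) in each of the 9 libraries (columns) for testis-high antioxidant genes in the top rows, Leydig cell markers in the middle rows and the other 7 of the 9 genes in the bottom rows. Me1, Cyp17a1, Hsd3b1 and Hsd3b6 are at 0 in all epididymis and brain libraries.

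The wider antioxidant pathway was described by 9 lists of 125 further genes, of which 106 were in the table and 96 were tested. For testis over epididymis 5 were called higher and 1 lower and 90 did not pass, beside 2.49% higher and 1.9% lower of all genes tested, and the median log2 fold was 0.43 against 0.10. Testis over brain gave 17 higher and 3 lower, beside 6.82% and 4.83% of all genes, with a median of 0.80 against -0.07. Epididymis over brain gave 7 higher and 1 lower, beside 2.99% and 1.8% of all genes, with a median of 0.17 against -0.13. The comparison of testis with brain had the most calls over all genes as well. Gstm2, Gstm5 and Aldh1l1, called higher in testis in both comparisons, reached the filter only with their testis libraries. So did Ephx1, called higher in testis than in brain. The calls of these genes are therefore no support for a change of the pathway. The other genes called higher in testis did not need their testis libraries to reach the filter. As the lists were chosen with earlier results of these data known, the counts are description, and a change of the pathway as a whole was not tested.

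The 5 tested genes of glutathione synthesis and cystine supply beside the 3 above all missed the threshold in each comparison. Among glutathione transferases, 2 of 10 tested were called higher in testis in both comparisons, and both lie near Gstm1 on chromosome 3. Gstm2 had normalised read counts of 155, 117 and 311 in testis, against 22 reads in epididymis replicate 1 and none in any other epididymis or brain library. It was higher in testis than in epididymis by 6.02 on the log2 scale (SE 1.56, limma adjusted p = 0.0401) and at least 66.8-fold higher than in brain (limma adjusted p = 0.00488). Gstm5 had 129, 107 and 152 in testis, against 2.73, 0 and 1.08 in epididymis and 0, 0 and 4.44 in brain. Its log2 folds were 6.03 (SE 1.44, limma adjusted p = 0.0264) and 6.197 (SE 1.44, limma adjusted p = 0.0101). Like Me1, both genes reached the filter on low values only with their testis libraries, so that their count is no support for a change of the list. Gstm5 shares 9.44% of its 50-base transcript stretches with 4933431E20Rik on the opposite strand, and the kit does not mark the strand.

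Of the genes that supply NADPH, 1 of 19 was called higher in testis than in either other organ. This was Aldh1l1, a folate enzyme that makes NADPH, named here after its values were seen. It had 62.1, 58.2 and 16.2 in testis and 0 in all other libraries, at least 15.6-fold higher in both comparisons (limma adjusted p = 0.0242 against epididymis and 0.0106 against brain). It too passed the filter only through testis, where it had to differ. Nadk, which makes NADP, was called higher in epididymis than in brain, with 478, 368 and 262 in epididymis, against 95.6, 34.6 and 98.7 in brain libraries (a log2 fold of 2.36, SE 0.51, limma adjusted p = 0.0128). Me2 and Me3, the mitochondrial malic enzymes, did not pass in any comparison, and Me3 had mean levels of 239 in testis, 267 in epididymis and 274 in brain.

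Among genes that remove superoxide and peroxide, Sod1 rose in testis relative to both other organs. Sod1, the cytosolic superoxide dismutase, had 794, 765 and 951 in testis, against 230.0, 376 and 539 in epididymis and 189, 174 and 155 in brain. The log2 folds for testis were 1.21 over epididymis (SE 0.33, limma adjusted p = 0.0494) and 2.27 over brain (SE 0.33, limma adjusted p = 0.000226). Park7, a redox-sensitive protein, was higher in testis than in brain by 1.49 (SE 0.36, limma adjusted p = 0.0138). In this list 1 of 10 tested genes passed against epididymis and 2 of 10 against brain. Of 6 tested glutathione peroxidase and glutaredoxin genes, 1 rose in testis relative to epididymis and 2 relative to brain. Glrx2, the mitochondrial glutaredoxin, had 3106, 2260 and 2176 in testis, against 1256, 1335 and 1361 in epididymis and 885, 1221 and 1389 in brain libraries (log2 folds 0.91 and 1.11, SE 0.22 each, limma adjusted p = 0.0266 and 0.00305). Gpx1, a glutathione peroxidase, rose in testis relative to brain, with means of 647 ± 257 and 193 ± 57.3 (log2 fold 1.70, SE 0.40, limma adjusted p = 0.0112).

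Thioredoxin and peroxiredoxin genes split between the organs. Txn1, thioredoxin itself, averaged 1107 ± 454 in testis and 201 ± 64.5 in brain libraries (a log2 fold of 2.42, SE 0.43, limma adjusted p = 0.00136), and Prdx6 averaged 423 ± 49.1 and 95.1 ± 44.7 (log2 fold 2.23, SE 0.41, limma adjusted p = 0.00198). Prdx5 went lower in testis than in epididymis, with 304, 232 and 278 in testis, against 591, 729 and 688 in epididymis. Its log2 fold was -1.30 (SE 0.30, limma adjusted p = 0.0229). Epididymis stood above brain for Prdx5 (log2 fold 2.08, SE 0.30, limma adjusted p = 0.00071) and Prdx1 (log2 fold 1.74, SE 0.23, limma adjusted p = 0.000371) and below it for Txnip, an inhibitor of thioredoxin (log2 fold -1.73, SE 0.39, limma adjusted p = 0.0164). Prdx1 was not particular to epididymis, with mean levels of 1092 in testis, 1149 in epididymis and 343 in brain. Testis exceeded brain for Prdx1 by 1.66 log2 units (limma adjusted p = 0.000179). Its levels in testis and epididymis did not pass as different (limma adjusted p = 0.904). The count was 3 of 10 higher in testis than in brain, 1 lower in testis than in epididymis, and 2 higher and 1 lower in epididymis than in brain. Prdx5 shares 19.1% of its exonic bases with Trmt112 and Txnip 19.4% with Gm15441, both on the opposite strand, so their reads are uncertain.

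In the list of quinone, aldehyde and heme detoxification, 5 of 16 tested genes were called higher in testis than in brain and 2 higher in epididymis than in brain. Aldh2, the mitochondrial aldehyde dehydrogenase, averaged 1709 ± 517 in testis, 1241 ± 327 in epididymis and 316 ± 158 in brain, with log2 folds over brain of 2.496 for testis and 2.04 for epididymis (SE 0.34 each, limma adjusted p = 0.000131 and 0.00205). Ephx1, an epoxide hydrolase, had 190.5, 108 and 189 in testis, against 21.8, 0 and 0 in epididymis and 2.73, 0 and 7.999 in brain. It reached the filter only with its testis libraries and passed against brain (log2 fold 5.62, SE 1.63, limma adjusted p = 0.0356) and not against epididymis (log2 fold 5.80, limma adjusted p = 0.0587). Ftl1, the ferritin light chain, was higher in epididymis than in brain by 1.63 (SE 0.30, limma adjusted p = 0.00411). It was also higher in testis than in brain, by 1.75 (SE 0.30, limma adjusted p = 0.00098), but 34.6% of its exonic bases overlap other genes. Hmox1, heme oxygenase and a well-known NRF2 target, had 89.0, 17.8 and 41.9 in testis, 10.9, 38.5 and 12.9 in epididymis and 14.6, 0 and 11.6 in brain and passed no test (limma adjusted p = 0.74 for testis over epididymis).

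In the list of NRF2 control and related factors, 2 of 10 tested genes were lower in testis than in brain, and all 10 missed the threshold between testis and epididymis. Keap1, which marks NRF2 for degradation, averaged 586 in testis, 764 in epididymis and 526 in brain and passed no comparison. Bach2, a repressor, averaged 107 ± 95.2 in testis and 381 ± 71.5 in brain libraries (a log2 fold of -2.47, SE 0.73, limma adjusted p = 0.0385), and Mafg, a DNA-binding partner of NRF2, 405 ± 198 and 909 ± 211 (log2 fold -1.24, SE 0.35, limma adjusted p = 0.0287). Bach2 alone spread from 13.7 to 204 among the testis libraries.

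Among NADPH oxidase genes, Cybb and Cyba were higher in testis and in epididymis than in brain. Cybb, the catalytic subunit of the phagocyte oxidase, had 2160, 2508 and 2660 in testis and 3391, 2911 and 3161 in epididymis, against 56.5, 42.4 and 31.997 in brain. Its log2 folds over brain were 5.81 for testis and 6.18 for epididymis (SE 0.25 each, limma adjusted p = 1.28e-09 and 4.65e-10). Cyba, its membrane partner, was higher by 1.19 in both comparisons (SE 0.26 each, limma adjusted p = 0.00768 and 0.0151). Ncf1, a cytosolic organiser of the oxidase, was lower in testis than in brain by a log2 fold of -1.09 (SE 0.29, limma adjusted p = 0.0219). Ncf1 shares 11.1% of its exonic bases with Gtf2ird2 on the opposite strand, so its reads are uncertain. All 10 tested oxidase genes missed the threshold between testis and epididymis.

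**Figure D4:**
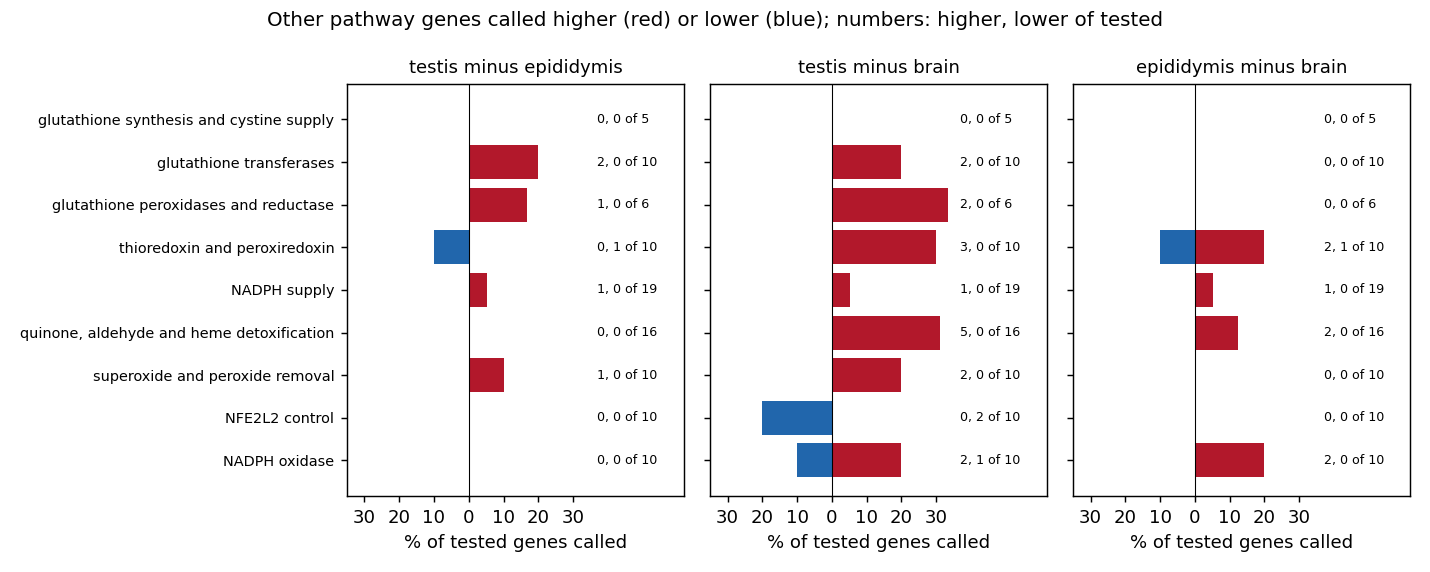
Share of tested genes called (x axis, percent) in each of the 9 lists of further antioxidant genes (rows), with genes called higher to the right in red and lower to the left in blue, for each pair of organs. Printed beside the bars are the counts called higher and lower of those tested. Testis over brain has the most calls, 17 higher and 3 lower of 96, as it has over all genes tested.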

How the data were processed

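RNA was measured by sequencing in 9 libraries of sorted macrophages, grouped by organ from their titles, and replicates are numbered by accession order. The deposited signal values are gene reads that the authors divided by 1 factor for each library. CASAVA 1.8, Bowtie2 2.2.1, Partek 6.6, DESeq2 and the mm10 genome are named per the submitters' processing notes. How reads were counted, and on which annotation, is not given in the sources used here. TruSeq RNA v2 libraries, per the labels' protocols, do not mark the strand. In every library 100% of values were whole multiples of the value of 1 read (largest deviation 3.93e-10 reads), so whole reads were recovered.

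Values were analysed as log2(value + 1), for 11766 genes with at least 10 in at least 3 libraries. A model with organ means was fitted to all 9 libraries (limma 3.58.1, R 4.3.3), letting variances follow the mean level. The 3 contrasts and an F test were each adjusted by Benjamini-Hochberg over all tested genes. Folds on this scale depend on the pseudocount for low genes and, where single libraries are at 0, can exceed the fold of the means. The fitting was tested on simulated data. Alternatives included edgeR 4.0.16 and DESeq2 1.42.0 on recovered reads, which called 366 and 783 genes between testis and epididymis, 1056 and 1591 between testis and brain and 458 and 913 between epididymis and brain. The genes and lists were chosen with earlier results of these data known. From each list and comparison, up to 2 called genes per direction with a mean of at least 50 in the higher organ were eligible to be named. Aldh1l1, Hmox1, Keap1, Me2, Me3 and Itgax were named outside that rule after their values were seen. Gene positions came from GENCODE M21 on GRCm38, and promoters from RefSeq.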

Additional observations from a re-analysis of the deposited data

How the results depend on the processing

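Each comparison was repeated under 21 alternatives, 3 of which (a filter needing 2 libraries, with each testis library left out) were chosen after seeing the data. Without the variance trend, 1 of the 9 genes was called between testis and epididymis and 0 between epididymis and brain, where 192 and 306 of all genes were still called by limma, and 837 between testis and brain. DESeq2 called 1 of the 9 between testis and brain, and over all genes 783 between testis and epididymis and 913 between epididymis and brain. Leaving out 1 library at a time, the 9 genes had 0 to 3 calls between testis and epididymis, 0 to 2 between testis and brain and 1 to 3 by the F test. All-gene counts then ran from 274 to 450 between testis and epididymis, from 821 to 1459 between testis and brain and from 332 to 620 between epididymis and brain. Me1 cannot pass the filter of 3 libraries with a testis library left out, which lowers these counts by construction. It passed in all 18 alternatives that tested it in each testis comparison (adjusted p up to 0.00854 and 0.00411), but any filter, the added one included, admits it only through testis libraries. Gstm1 passed in 12 of 21 against epididymis and 13 of 21 against brain (adjusted p up to 0.0754 and 0.0876). Nfe2l2 passed in 12 of 21 between testis and epididymis (adjusted p up to 0.271) and in 20 of 21 between epididymis and brain.

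Signs changed only for folds that passed no test, and the cause was not tested. For testis over epididymis, leaving out 1 library gave log2 folds from -1.41 to 2.23 for Gclm, -1.29 to 0.26 for Gclc, -2.01 to 1.61 for Txnrd1 and -0.65 to 0.16 for Slc7a11. For testis over brain it gave -2.06 to 0.84 for Gclm and -2.87 to 0.75 for Txnrd1, and for epididymis over brain -2.85 to 0.35 for Gclm and -0.50 to 0.83 for Gsr. Txnrd1 turned to 0.69 with edgeR and 0.66 with DESeq2 over epididymis, and to 0.12 and 0.14 over brain. Gsr for epididymis over brain turned to 0.035 with a pseudocount of 5, 0.72 with quantile normalization, 0.029 with edgeR and 0.065 with DESeq2. Rescaling to equal totals moved the median of all genes by -0.15 for testis over epididymis and -0.22 for testis over brain. No paired analysis was possible because nothing in the labels ties a library of 1 organ to one of another. Gsr, Gclm and Srxn1 rested on 29 to 165 reads per organ, and no difference in them was detected.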
